A study of Mus musculus with 5 samples.

Results

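The B1 family of mouse short interspersed elements (SINEs) was examined in its older members, the 4 names B1_Mur1 to B1_Mur4 and the 3 names B1F, B1F1 and B1F2, across 5 melRNA-seq libraries. They were chosen by name and not by any measured value, though with earlier results of these data known. They are 7 of the 1038 repeat or RNA names with a read in any library and 7 of the 10 B1 subfamilies. The other 3 subfamilies, B1_Mm, B1_Mus1 and B1_Mus2, are the most recent ones and are called young B1 here. The question was how much of the B1 RNA in testis and in male germ cells carries the sequence of the older subfamilies, and whether that RNA behaves like young B1 RNA.

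B1 elements descend from 7SL RNA, the RNA of the signal recognition particle, and are copied by RNA polymerase III (Pol III) from a promoter that lies inside the element. A Pol III transcript keeps a triphosphate at its 5' end, whereas a fragment cut from a longer RNA need not. B1 codes for no protein and moves by borrowing the reverse transcriptase of LINE elements. Old subfamilies survive in the genome as many diverged copies, some of them lying inside genes, so a read that carries an old B1 sequence can come from Pol III or from a longer transcript that includes the element. Such sources were not told apart by these counts.

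All libraries were made from C57BL/6J RNA. Whole testis gave 3 libraries from 600 ng of RNA each, with 1 library without enzyme (untreated), 1 after 25 U of TAP for 1.5 h and 1 after 20 U of 5' polyphosphatase for 30 min. The labels call TAP tobacco alkaline phosphatase. The 5' adaptor needs a monophosphate, which TAP makes from caps and from triphosphates, and which 5' polyphosphatase makes from triphosphates alone. Spermatogonia, the mitotic germ cells, were sorted by their surface EpCAM and gave 2 replicates whose RNA was treated with RppH, a pyrophosphohydrolase that likewise leaves a monophosphate. Both tissues are given as postnatal day 7. Inserts of 115 to 255 nt were selected for testis. For spermatogonia the sample labels repeat the testis protocol with its TAP step, kit and size range, whereas the methods of the study give RppH, as the sample titles do, another kit and a gel selection without stated sizes, and the methods were followed here. Tissue, enzyme and library kit differ together between spermatogonia and testis and cannot be told apart, and in bulk RNA of this kind fewer cells of a type and less RNA per cell cannot be told apart either. Messenger RNAs that mark cell types are outside the range of this assay, so the labelled cell types were used without a marker check.

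The libraries held 1160933 (untreated), 1067851 (TAP), 1081523 (5' polyphosphatase), 3166394 and 1993087 (spermatogonia replicates 1 and 2) reads with a name. Levels are given as RPM, which here is the read count divided by that of 5.8S rRNA in the same library, times 1000000. Since 5.8S rRNA made up 19.2% to 50.2% of the named reads, each ratio depends on this choice, and per named read the ratio of TAP to untreated testis becomes 1.84 times as large and that of 5' polyphosphatase to untreated 0.706 times as large for any name. One read stands for one whole insert, so no correction for length was made. Intervals are exact 95% intervals from the read counts unless named as Wilson intervals. They cover counting error only and leave out differences between libraries. Reads carry no molecular identifiers, so copies of the same molecule were not told apart and the intervals may be too narrow. With 1 library per testis treatment, differences between treatments have no replicate check and no p-value is given for them. The data used here hold no consensus sequence and no position of a B1 copy, so neither is shown.

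In spermatogonia, B1_Mur4 was the most abundant older subfamily, and the 4 B1_Mur subfamilies stood above B1F, B1F2 and B1F1. B1_Mur4 had 1439 reads (1163 RPM) in replicate 1 and 1004 reads (1947 RPM) in replicate 2, a mean of 1555 ± 554 RPM (SD, n = 2). B1_Mur3 followed with 454 RPM in replicate 1 and 735 RPM in replicate 2. B1_Mur2 was at 386 RPM and 609 RPM in replicates 1 and 2. Each of these subfamilies was thus higher in replicate 2, in the same order. B1_Mur1 had 299 RPM and 506 RPM, and B1F had 188 RPM and 281 RPM. B1F2 reached 69.5 RPM from 86 reads in replicate 1 and 130 RPM from 67 reads in replicate 2. B1F1 was the rarest, with 54 reads (43.7 RPM) and 24 reads (46.5 RPM). The 7 subfamilies kept this order in both replicates, from B1_Mur4 down to B1F1. On the RPM scale the SD between replicates (146 RPM for B1_Mur1, 158 RPM for B1_Mur2 and 199 RPM for B1_Mur3) was larger than the gaps between the means of these neighbours, at 403 RPM, 497 RPM and 594 RPM. The gaps between the other neighbours exceeded the SD of either, with 235 ± 65.7 RPM for B1F, 99.7 ± 42.7 RPM for B1F2 and 45.1 ± 2.04 RPM for B1F1 (SD, n = 2 each).

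**Figure D1:**
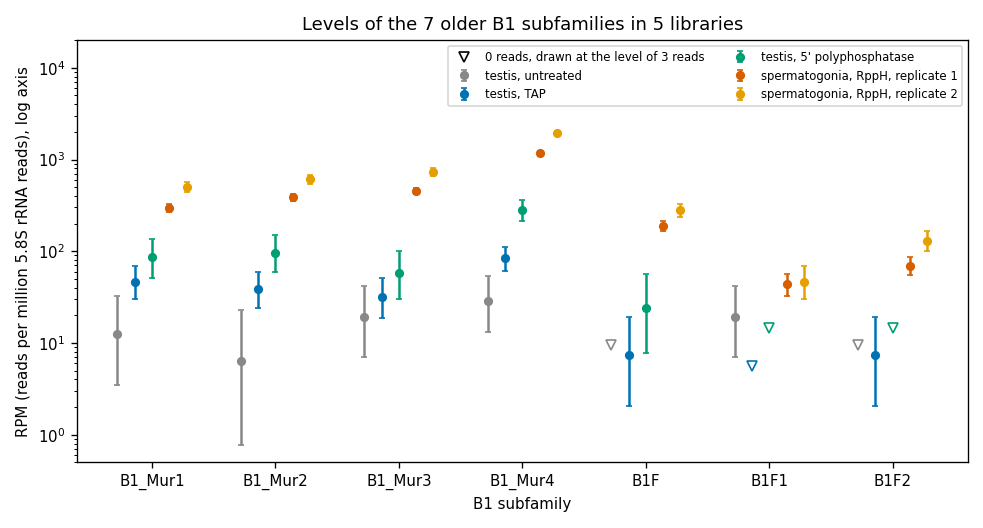
Level of each older B1 subfamily (x axis) in RPM on a log axis, 1 point per library with its exact 95% counting interval. An open triangle marks 0 reads, drawn at the level that 3 reads would have. The orange and yellow spermatogonia points lie above every testis point of the same subfamily, from 43.7 RPM for B1F1 to 1947 RPM for B1_Mur4. For B1F1 their intervals overlap that of the untreated testis point.

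Most of the spread between the spermatogonia replicates was common to all older subfamilies. The ratio of replicate 2 to replicate 1 was 1.63 (95% interval 1.55 to 1.73) for the sum of the 7, and from 1.07 (B1F1) to 1.87 (B1F2) for single members. Per named read that ratio fell to 1.08 (1.02 to 1.14), with 1017 and 1101 older B1 reads per 1000000 named reads. The split of the older reads among the 7 names was nearly the same in both replicates. B1_Mur4 gave 44.7% and 45.8% of them, a mean of 45.2% ± 0.758 (SD, n = 2). B1_Mur3 gave 17.3% ± 0.105, B1_Mur2 14.6% ± 0.355 and B1_Mur1 11.7% ± 0.287 (SD, n = 2 each). As shares, these neighbours were therefore separated by more than the SD between replicates. B1F gave 6.92% ± 0.443, B1F2 2.86% ± 0.271 and B1F1 1.39% ± 0.412 (SD, n = 2 each). A chi-square test of the reads of the 7 names between the replicate libraries gave 5.25 with 6 degrees of freedom (p = 0.512), so a difference in the split was not detectable at this depth. The same chi-square test on the 3 young subfamilies gave 282 with 2 degrees of freedom (p = 4.8e-62). It rested on 27595 and 26612 reads in replicates 1 and 2, against 3220 and 2194 for the older names, so the p-values cannot be compared. These tests take reads as their units and compare the pair of libraries and not conditions.

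The balance of older to young B1 differed between the replicates. Older B1 made up 3220 of 30815 B1 reads in replicate 1, or 10.4% (Wilson 95% interval 10.1% to 10.8%), and 2194 of 28806 in replicate 2, or 7.62% (7.32% to 7.93%). Young B1 was 2.31 times (2.27 to 2.35) as high in replicate 2 as in replicate 1 in RPM, against 1.63 times for older B1. The odds of an older against a young read in replicate 2 were 0.707 times those in replicate 1 (0.667 to 0.748), a comparison that needs no denominator.

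In testis the same names were read from few counts, and in each of the 4 B1_Mur subfamilies the untreated library was lowest and the 5' polyphosphatase library highest in RPM. B1_Mur4 had 9 reads without enzyme (28.5 RPM, interval 13.0 to 54.0), 45 after TAP (84.0 RPM, 61.2 to 112) and 58 after 5' polyphosphatase (279 RPM, 212 to 360). Here none of the 3 intervals overlapped. B1_Mur1 had 4, 25 and 18 reads in the untreated, TAP and 5' polyphosphatase libraries, or 12.7 RPM, 46.6 RPM and 86.5 RPM. B1_Mur2 had 2, 21 and 20 reads, or 6.33 RPM, 39.2 RPM and 96.2 RPM. For B1_Mur2 the intervals of both enzyme libraries, 24.3 to 59.9 RPM and 58.7 to 149 RPM, lay above that of the untreated library, 0.766 to 22.9 RPM. B1_Mur3 had 6, 17 and 12 reads, or 19.0 RPM (6.97 to 41.3), 31.7 RPM (18.5 to 50.8) and 57.7 RPM (29.8 to 101), and its 3 intervals overlapped. Per 1000000 named reads the untreated library was again lowest for each of the 4, but the TAP library was then above the 5' polyphosphatase library for B1_Mur1 (23.4 against 16.6), B1_Mur2 (19.7 against 18.5) and B1_Mur3 (15.9 against 11.1) and below it for B1_Mur4 (42.1 against 53.6).

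The B1F names did not share this order. B1F had 0 reads without enzyme, 4 after TAP (7.46 RPM) and 5 after 5' polyphosphatase (24.0 RPM). B1F2 had 4 reads after TAP (7.46 RPM) and 0 in both other testis libraries. B1F1 had 6 reads without enzyme (19.0 RPM, 6.97 to 41.3) and 0 after either enzyme. For fold values a count of 0 was set to 3 reads, which is 9.49 RPM in the untreated library, 5.60 RPM in the TAP library and 14.4 RPM in the 5' polyphosphatase library. The exact upper limit for a count of 0 is 3.69 reads, or 11.7 RPM, 6.88 RPM and 17.7 RPM in the same libraries. As 1 group, B1F, B1F1 and B1F2 had 6, 8 and 5 reads in the untreated, TAP and 5' polyphosphatase libraries.

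The comparison of TAP with untreated testis RNA asks how many older B1 reads need a 5' end opened by enzyme to be seen. The sum of the 7 was 27 reads or 85.4 RPM (56.3 to 124) without enzyme and 116 reads or 216 RPM (179 to 260) after TAP, 2.53 times as high (1.66 to 4.01). By subfamily the ratio was 6.19 (1.51 to 54.5) for B1_Mur2, 3.69 (1.27 to 14.6) for B1_Mur1 and 2.95 (1.42 to 6.86) for B1_Mur4. For B1_Mur3 it was 1.67 (0.629 to 5.18), not distinguishable from 1 at this depth, although per named read it was 3.08 (1.16 to 9.54). B1F1 went the other way and was 3.39-fold lower after TAP, with 3 reads assumed where it had 0. The exact upper limit of its ratio was 0.501, and per named read it was 0.923. With B1F1 included, the 3 B1F names together gave 0.786 (0.239 to 2.75), and the 4 B1_Mur names together 3.03 (1.89 to 5.10). Only the 4 B1_Mur names had at least 10 reads over the libraries compared. Of these, 3 were at least 2-fold higher after TAP, beside 26.3% of the 323 names tested. Their median ratio, with 0.5 read added to each count, was 3.07 beside 0.590 for all names. Each of the 4 had under 10 reads without enzyme and passed the minimum only through the TAP library, where it was high, so the count and the median describe these names and support nothing.

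After 5' polyphosphatase the sum of the 7 was 113 reads or 543 RPM (448 to 653), 6.36 times the untreated level (4.15 to 10.1). The ratio was 15.2 (3.69 to 134) for B1_Mur2, 9.79 (4.82 to 22.5) for B1_Mur4, 6.84 (2.25 to 27.8) for B1_Mur1 and 3.04 (1.06 to 9.87) for B1_Mur3. The order of the subfamilies cannot be read from these values, since their intervals overlap. Per named read B1_Mur3 gave 2.15 (0.746 to 6.97), which includes 1. B1F was 2.53-fold higher than without enzyme, from 5 reads against 0 with 3 assumed. The exact lower limit of its ratio was 1.39, and per named read it was 0.984, which leaves 1 inside the interval. B1F1 was 1.32-fold lower with 3 reads assumed for its 0, but the counting interval of its ratio reached up to 1.29 and so included 1. The 3 B1F names together gave 1.27 (0.306 to 4.98). Per named read these 3 gave 1.45 for TAP and 0.895 for 5' polyphosphatase, so no direction can be read for them. All 4 B1_Mur names were at least 2-fold higher, beside 41.1% of the 314 names tested, with a median ratio of 7.65 beside 1.75 for all names. They again passed the minimum only through the enzyme library, so nothing is read from this count and median. Both enzyme comparisons use the same untreated library, so they are not independent of each other.

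**Figure D2:**
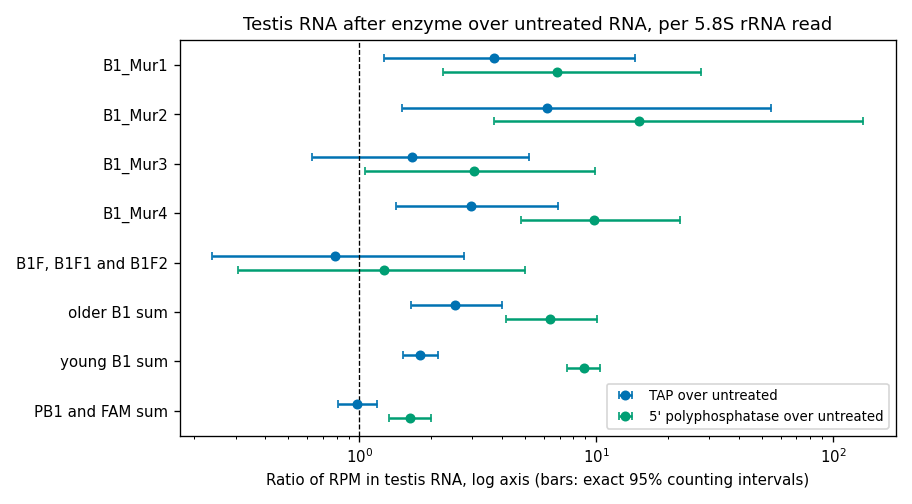
Ratio of RPM in enzyme-treated to untreated testis RNA on a log axis, with exact 95% counting intervals, for the 4 B1_Mur subfamilies, the 3 B1F names together, and the sums of older B1, young B1 and the 7SL-derived monomers. The dashed line marks a ratio of 1. The older sum lies at 2.53 for TAP and 6.36 for 5' polyphosphatase, and the B1F group straddles 1 for both.

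Young B1 and the PB1 and FAM monomers, single-unit elements of the same 7SL origin, were set beside older B1. Young B1 gave ratios to untreated RNA of 1.80 (1.52 to 2.15) for TAP and 8.84 (7.55 to 10.4) for 5' polyphosphatase. The 6 monomer names together gave 0.979 (0.812 to 1.18) and 1.64 (1.33 to 2.01), but FAM alone supplied 143 of their 182 untreated reads. After TAP, FAM was at 0.503 (0.392 to 0.645) of its untreated level, whereas PB1 was at 2.22 (1.41 to 3.60), PB1D10 at 5.19 (2.06 to 16.8), PB1D7 at 9.44 (1.47 to 396) and PB1D9 at 1.92 (0.843 to 4.90). The sum therefore follows FAM and not the other 4 names with reads in testis. PB1D11 had 0 reads in testis. The odds of an older against a young read were 1.40 times as high after TAP as without enzyme (0.883 to 2.29) and 0.719 times as high after 5' polyphosphatase (0.454 to 1.17). Neither was distinguishable from 1, with only 27 older reads in the untreated library. Without the B1F names the TAP value was 1.68 (1.01 to 2.91), and for the B1F names alone the 5' polyphosphatase value was 0.143 (0.0343 to 0.571), from 6 reads without enzyme and 5 with it. Those 6 reads were all B1F1 and those 5 all B1F, so the group value joins names that went opposite ways.

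The enzyme-treated testis libraries were also set against each other, a comparison added after the values had been seen. Per 5.8S rRNA read, older B1 in the TAP library was 0.398 times its level in the 5' polyphosphatase library (0.305 to 0.521), and young B1 was 0.204 times (0.184 to 0.226). Per named read the value for older B1 was 1.04 (0.795 to 1.36) and that for young B1 was 0.533 (0.480 to 0.591), so the direction for older B1 rests on the denominator. The comparison within libraries does not. Older B1 made up 116 of 673 B1 reads after TAP, or 17.2% (Wilson 95% interval 14.6% to 20.3%), and 113 of 1172 in the 5' polyphosphatase library, or 9.64% (8.08% to 11.5%). The odds of an older against a young read were 1.95 times as high in the TAP library (1.46 to 2.60).

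By subfamily, these odds were 2.69 (1.20 to 6.22) for B1_Mur3, 2.64 (1.37 to 5.18) for B1_Mur1 and 2.00 (1.02 to 3.92) for B1_Mur2. They were 1.48 (0.963 to 2.25) for B1_Mur4 and 1.52 (0.300 to 7.10) for B1F, whose intervals include 1. The monomers, set against young B1 in the same way, gave 2.93 (2.37 to 3.62). In RPM the ratio of TAP to 5' polyphosphatase was lowest for the young names, 0.147 for B1_Mm, 0.221 for B1_Mus2 and 0.269 for B1_Mus1. Next came B1_Mur4 at 0.301 (0.199 to 0.452) and B1_Mur2 at 0.407 (0.210 to 0.792), then B1_Mur1 at 0.539 (0.282 to 1.05) and B1_Mur3 at 0.550 (0.247 to 1.26). The intervals of all 4 B1_Mur names overlap that of B1_Mus1, 0.224 to 0.324. All but that of B1_Mur1 also overlap that of B1_Mus2, 0.185 to 0.265. None overlaps that of B1_Mm, which is 0.122 to 0.176. Of the 4 B1_Mur names, 2 were at least 2-fold lower in the TAP library, beside 68.8% of the 346 names tested, and their median ratio was 0.467 beside 0.299 for all names.

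**Figure D3:**
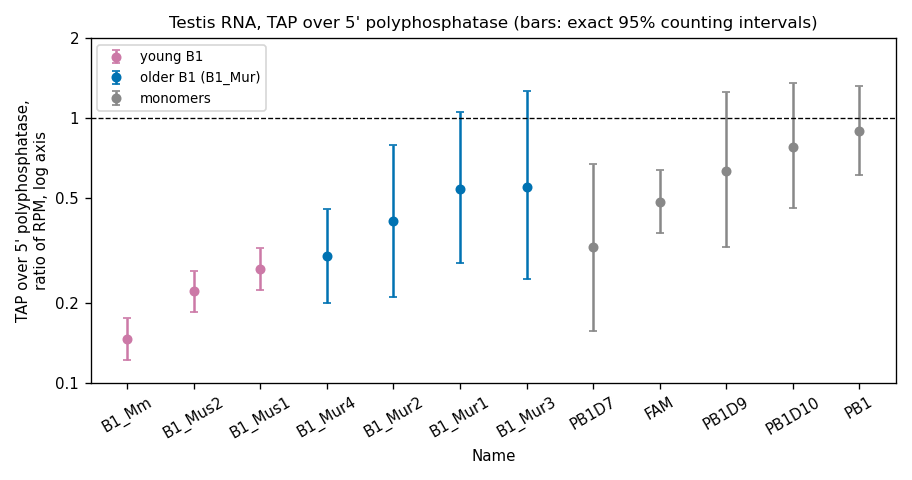
Ratio of RPM in the TAP library to RPM in the 5' polyphosphatase library of testis, on a log axis with exact 95% counting intervals, for the 3 young subfamilies, the 4 B1_Mur subfamilies and the 5 monomer names with reads in testis. Each of the 4 B1_Mur points (0.301 to 0.550) lies above each young point (0.147 to 0.269), but all 4 intervals overlap that of B1_Mus1. The monomers run from 0.327 (PB1D7) to 0.890 (PB1) across and above the B1_Mur range.

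B1_Mur4 was the largest older subfamily in every testis library, as in spermatogonia, but the rest of the split differed in part. The testis intervals are wide. B1_Mur4 gave 33.3% of older reads without enzyme (Wilson 95% interval 18.6% to 52.2%), 38.8% with TAP (30.4% to 47.9%) and 51.3% with 5' polyphosphatase (42.2% to 60.3%). B1_Mur1 stood at 21.6% after TAP (15.0% to 29.9%), above its 11.5% and 11.9% in the spermatogonia replicates. B1_Mur2 at 18.1% and B1_Mur3 at 14.7% followed it after TAP, the reverse of the spermatogonia order, though with overlapping intervals. After 5' polyphosphatase the B1F names together gave 4.42% (1.90% to 9.94%). In spermatogonia they gave 11.6% (10.5% to 12.7%) in replicate 1, which does not overlap, and 10.8% (9.53% to 12.1%) in replicate 2, which does. B1F1 gave 22.2% (10.6% to 40.8%) of the older reads without enzyme, from 6 reads, and at most 1.68% in spermatogonia.

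**Figure D4:**
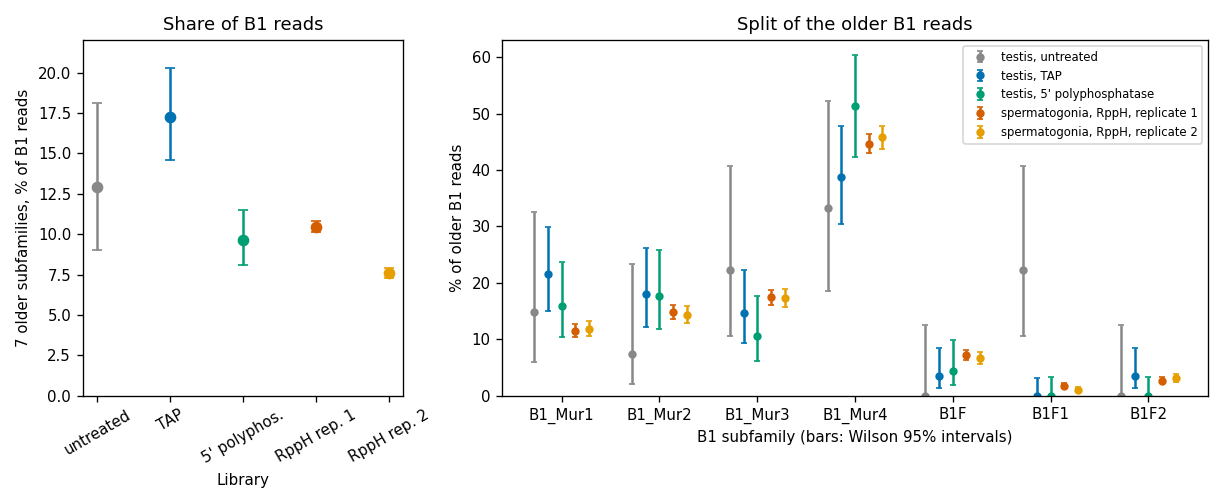
Left, older B1 as a percent of all B1 reads in each library. Right, the percent of older B1 reads given by each subfamily in each library. Bars are Wilson 95% intervals. In testis, older B1 took 12.9% of B1 reads without enzyme, 17.2% with TAP and 9.64% with 5' polyphosphatase. Spermatogonia replicate 1 was at 10.4% and replicate 2 at 7.62%. Only the TAP interval lies above those of both replicates. The other testis intervals overlap that of replicate 1 and lie above that of replicate 2. The spermatogonia replicates nearly coincide in the right panel.

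Spermatogonia were set beside testis after TAP, the comparison the study makes for the whole B1 family. All 7 older subfamilies had a higher level in both spermatogonia replicates than in any testis library, also per named read. The share of all names that did so was not computed. For B1F1 the intervals in spermatogonia, 32.8 to 57.0 RPM and 29.8 to 69.3 RPM, overlapped that of its 6 reads in untreated testis, 6.97 to 41.3 RPM. The sum of the 7 was 2603 RPM in replicate 1 and 4255 RPM in replicate 2. This is 12.0 times (9.99 to 14.6) and 19.7 times (16.3 to 23.9) the TAP level, a mean of 15.8 ± 5.40 (SD, n = 2). Per named read the ratios were 9.36 and 10.1, a mean of 9.75 ± 0.546. The range between replicates thus shrank when the denominator changed, and the excess over testis remained. With 5' polyphosphatase as the testis library the ratio was 6.31 ± 2.15 (SD, n = 2) per 5.8S rRNA read.

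Among the B1_Mur names, B1_Mur1 had the lowest ratio to the TAP library, 6.41 (4.28 to 10.04) in replicate 1 and 10.9 (7.19 to 17.1) in replicate 2. B1_Mur2 gave 9.84 and 15.5. B1_Mur3, at 14.3 (8.85 to 24.7) and 23.2 (14.3 to 40.2), and B1_Mur4, at 13.9 (10.3 to 19.1) and 23.2 (17.2 to 32.0), could not be separated. In each replicate the interval of B1_Mur4 lay above that of B1_Mur1, by a narrow margin. Against the 5' polyphosphatase library this separation was lost, with 4.17 (3.21 to 5.52) for B1_Mur4 and 3.46 (2.16 to 5.90) for B1_Mur1 in replicate 1, and 6.98 (5.36 to 9.26) and 5.85 (3.63 to 10.03) in replicate 2. B1F gave 25.2 (9.73 to 93.4) and 37.7 (14.4 to 140), and B1F2 gave 9.32 (3.51 to 35.0) and 17.4 (6.49 to 65.8), each against 4 reads in testis. B1F1 was 7.80-fold and 8.32-fold higher, against 0 reads with 3 assumed. The exact lower limits of its ratio were 6.13 and 6.26. All 7 were at least 2-fold higher in both replicates, beside 46.8% of the 468 names tested. B1F, B1F1 and B1F2 reached the minimum of 10 reads only through spermatogonia, so neither their count nor a median over the 7 is support for a difference. As a description, that median was 17.7 with 0.5 read added and 12.7 with 3 testis reads assumed for B1F1, beside 2.63 for all names. The 4 B1_Mur names passed the minimum in the TAP library alone.

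**Figure D5:**
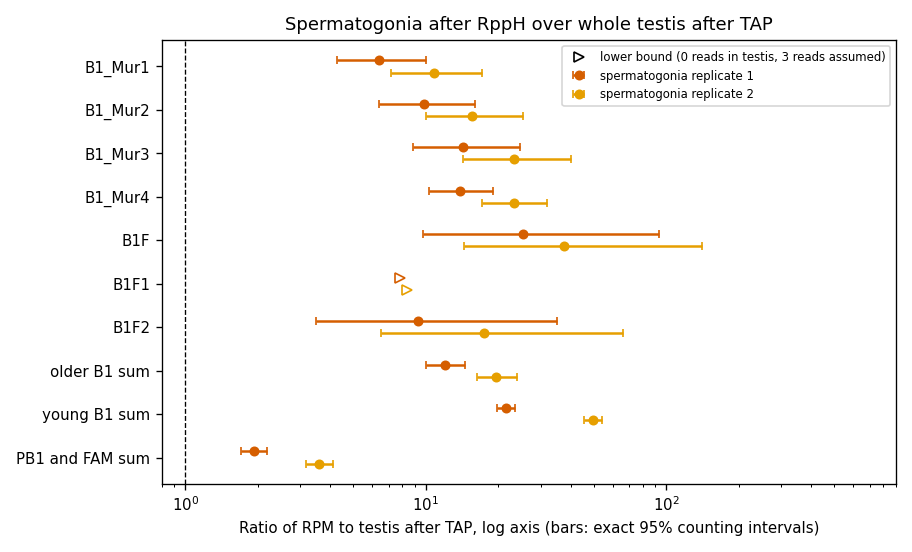
Ratio of RPM in each spermatogonia replicate to RPM in testis after TAP, on a log axis, with exact 95% counting intervals. Open triangles, labelled as lower bounds, are the B1F1 ratios with 3 reads assumed for its 0 reads in that testis library. The exact lower limits were 6.13 and 6.26. The older sum (12.0 and 19.7) lies between the monomer sum (1.93 and 3.60) and young B1 (21.5 and 49.7) in both replicates, although the monomer PB1D9 by itself, not plotted, was at 9.47 and 16.2.

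Against testis after TAP, older B1 had a smaller ratio than young B1 in both spermatogonia replicates. Young B1 was 35.6 ± 19.9 times (SD, n = 2) its TAP level, and the monomers 2.76 ± 1.19 times. Within the monomers the values ran from 0.305 and 1.03 for FAM to 9.47 (6.39 to 14.6) and 16.2 (10.9 to 25.1) for PB1D9, which overlapped the intervals of the older sum. PB1D11 had 0 reads in that testis library, and the exact lower limits of its ratio were 7.19 and 10.5. The odds of an older against a young read in spermatogonia were 0.560 (0.456 to 0.693) and 0.396 (0.322 to 0.490) times those in the TAP library for replicates 1 and 2. B1_Mur1 had the lowest odds among the members, 0.299 and 0.219. The intervals of B1F, at 1.18 and 0.759, and of B1F2, at 0.434 and 0.351, included 1 in both replicates, as did that of B1_Mur3 in replicate 1, at 0.666 (0.409 to 1.16). Against the 5' polyphosphatase library the odds for replicate 1 were 1.09 (0.897 to 1.34) and those for replicate 2 were 0.773 (0.633 to 0.951). The lower proportion of older B1 in spermatogonia thus held against TAP in both replicates and against 5' polyphosphatase in replicate 2 alone. Against 5' polyphosphatase in replicate 1, the odds went the other way for B1_Mur3, at 1.79 (1.01 to 3.50), and for the B1F names together, at 2.86 (1.21 to 8.89). All reads of that group in the 5' polyphosphatase library were B1F, whose own odds of 1.79 (0.753 to 5.57) included 1. In replicate 2 the odds of B1_Mur3 and of the B1F group were 1.26 (0.708 to 2.46) and 1.88 (0.791 to 5.85), which include 1.

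The names whose RPM profile over the 5 libraries came closest to that of the older B1 sum were found by the distance between log2 RPM values centred on their mean, among 241 names with at least 3 reads in every library. An alanine tRNA name, tRNA_chr13.trna69-AlaAGC, was closest at 0.536, with 9, 25, 32, 707 and 522 reads in the untreated, TAP, 5' polyphosphatase and 2 spermatogonia libraries. B1_Mus1, a young subfamily, followed at 0.650. The SINE name B3 was at 0.699, with 42, 309, 283, 8851 and 5971 reads. ID_B1, at 0.797, and the monomer PB1D9, at 0.801, completed the nearest 5. The other young subfamilies were at rank 8 (B1_Mus2, 1.08) and rank 11 (B1_Mm, 1.33), whereas the monomer FAM was at rank 168 (6.36). All profiles share the same 5 libraries and the same 5.8S rRNA counts, and the distances are a description with no test.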

How the data were processed

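RNA of medium length was measured by melRNA-seq in 3 testis libraries and 2 spermatogonia libraries. The authors deposited counts, the raw number of reads under each name, library by library. The authors trimmed adaptors with Cutadapt, kept only reads in which the 3' adaptor was found, and named them with RepeatMasker. The versions, the repeat library and the genome build are not given in the sources used here. RepeatMasker gives a read the name of the nearest consensus, so reads could pass between similar B1 subfamilies, which was not tested.

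Names were matched without regard to case, the text after a slash and an rRNA prefix were dropped, and 612 names were found in both tissues. One line without a count was skipped in each of the untreated and 5' polyphosphatase tables. Columns of other samples numbered 0. Levels were divided by 5.8S rRNA reads or by all named reads. Ratios have exact binomial (Clopper-Pearson) intervals, levels exact Poisson intervals, shares Wilson intervals, and odds ratios exact conditional intervals, all at 95%. Those of ratios and odds ratios were tested on simulated counts that held counting error only. A count of 0 was set to 3 reads for fold values. These take the other count as exact, so they are not interval limits. No model across names was fitted, since each testis treatment has 1 library. The names given are all 7 members, young B1, the PB1 and FAM monomers, and the 5 names nearest in profile. Values of single monomer names were added with results in view. The members and lists were chosen with earlier results of these data known. Alternatives changed the denominator, the members, the fold, the minimum of reads, the testis library and the replicates. Intervals were computed with scipy 1.17.1 in Python 3.11.15, on arrays of numpy 2.4.6, and plots were drawn with matplotlib 3.10.9.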

Additional observations from a re-analysis of the deposited data

How the results depend on the processing

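Of 63 alternatives over 12 results, 43 kept the value close, 17 moved it and 3 put a ratio whose interval excluded 1 on the other side of 1. Part of the 43 says nothing about robustness. Either of 2 replicates always lies within the SD around their mean, so leaving one out could not move the value. Every alternative for a count of members was labelled close, also where the count changed. With all named reads as the denominator, the ratio of older B1 was 4.67 for TAP to untreated and 9.75 for spermatogonia to TAP. For TAP to 5' polyphosphatase it was 1.04 (0.795 to 1.36), above 1 but not distinguishable from it. With named reads other than rRNA the ratios were 7.10 for TAP to untreated, 4.10 for 5' polyphosphatase to untreated and 1.73 for TAP to 5' polyphosphatase, again above 1. With B1F, B1F1 and B1F2 alone the ratio was 0.786 (0.239 to 2.75) for TAP to untreated, below 1 but not distinguishable from it. The other ratios were 1.27 for 5' polyphosphatase to untreated, 0.621 for TAP to 5' polyphosphatase and 25.4 for spermatogonia to TAP. These names also gave 1.01% of B1 reads in spermatogonia. Their odds against young B1 were 0.436 (0.131 to 1.55) for TAP to untreated, on the other side of 1 from all 7 members but not distinguishable from 1. The other odds were 0.143 for 5' polyphosphatase to untreated, 3.04 for TAP to 5' polyphosphatase and 0.779 for spermatogonia to TAP. Without B1_Mur4 the older share of B1 reads in spermatogonia was 4.96%. With the monomers added to young B1, the odds were 1.21 for 5' polyphosphatase to untreated, again on the other side of 1, and 0.706 for spermatogonia to TAP. With 5' polyphosphatase as the testis library, the spermatogonia ratio was 6.31 and the odds were 0.933. The cause was not tested. The alternatives for TAP against 5' polyphosphatase were added after the data had been seen. Leaving out each spermatogonia replicate in turn gave ratios to TAP of 12.0 to 19.7, shares of 7.62% to 10.4% and odds of 0.396 to 0.560. Counts of members at least 2-fold higher ran from 3 to 4 for TAP, from 3 to 5 for 5' polyphosphatase and stayed at 7 for spermatogonia. At 3-fold they were 2, 4 and 7. The share of all names was computed for the main setting alone, so nothing is read from these counts. No paired analysis was possible because each testis treatment has 1 library and shares no pair of replicate numbers with spermatogonia. Few reads limit the ratios to untreated testis, whose library held 27 older B1 reads among 1160933 named reads.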
